A study of Mus musculus with 5 samples.

Results

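The autophagy genes described here are 35 genes chosen by name from the core autophagy machinery, of which 34 had a row analysed here among 22180 genes in all. A member was taken from rows whose annotation names exactly 1 gene, and of the several rows of Gabarap, the only member with more than 1, the brightest by its mean over all arrays was kept. Optn was not analysed here. All 34 members passed the filter on low values, a mean over the arrays at or above 4.89 on the log2 scale, which kept 12049 genes, called measured below.

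The samples were bone marrow-derived macrophages, BMDMs, from wild-type mice aged 10 weeks, cultured on plastic with 20 ng/ml M-CSF, a growth factor of the macrophage lineage, and 30 ng/ml RANKL, the cytokine that turns macrophages into bone-resorbing osteoclasts. RNA was taken at day 0, labelled BMDMs, at days 1, 2 and 3, labelled BMDM-osteoclasts during differentiation, and at day 5, labelled mature osteoclasts. The sources used here do not give the mouse strain or how many animals were used. The labels count the days as days of osteoclast differentiation. Each day was measured on 1 Affymetrix array from 5 ng of total RNA, so no comparison could be tested against replicate spread. Cultures kept without RANKL over the same days were not analysed here, so culture time and RANKL cannot be told apart.

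Values are log2 levels as the authors deposited them, and a difference is the log2 value of the later array minus that of the earlier one. A difference of 1, which is 2-fold, counted as a call. As a rough measure of noise, the day 5 minus day 0 difference disagreed between 2 rows of 1 gene with an SD of 0.60 over 426 genes, or 0.42 for 1 row. Any real difference between the 2 rows is part of it too, so it need not equal array noise. For comparison, the day 5 minus day 3 difference had an SD of 0.24 over measured genes. Spread between cultures is not part of the row measure, and precision is limited by having so few arrays. The arrays are of bulk RNA, in which fewer cells of a type and less RNA per cell cannot be told apart. The labels fitted the markers of their cell types. Each of the 9 osteoclast markers exceeded its day 0 level by 2-fold or more at day 5, beside 6.78% of measured genes. The phosphatase Acp5 stood at 7.10 at day 0 and 12.86 at day 5, and the collagen-degrading protease Ctsk at 6.54 and 13.29. All 8 macrophage markers stayed above the filter on all arrays, with the M-CSF receptor Csf1r at 12.50 and 12.36 and Adgre1, a surface receptor of mouse macrophages, at 11.93 and 10.93. Still, 7 of the 8 lay below day 0 at day 5 (median -0.48), beside 49.2% of measured genes. Of the 8 markers 1 was called lower, Fcgr1, at 10.75 and 8.21, beside 6.56% of measured genes.

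Autophagy encloses cytoplasm in a double membrane, the autophagosome, and delivers it to the lysosome. A kinase complex around ULK1 starts the process, a class III PI3-kinase complex marks the membrane with PI3P, and ubiquitin-like conjugation attaches LC3 and GABARAP proteins to it, which bind cargo receptors. In osteoclasts, LC3 lipidation and its conjugation enzymes are also known to take part in directing lysosomes to the ruffled border, the membrane through which bone is resorbed.

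The autophagy genes ended the culture close to where they began, after lower values at day 1 and higher ones from day 3. At day 5, 0 of 34 were called higher than at day 0 and 0 were called lower, where 6.78% of all measured genes were higher and 6.56% lower. Their differences ran from -0.57 for Uvrag to 0.96 for Map1lc3a, with a median of 0.11, and the median of all measured genes was 0.00. Past the noise measure of 0.42, 9 members stood higher and 2 lower, which is 26.5% and 5.88% of members, beside 17.9% and 19.7% of measured genes. A different scaling, reference-level centring, sets the median level of 12 reference genes equal on all arrays. It lowers every day 5 difference by 0.49, the median of all measured genes included. This shift reflects 1 reference gene changing place in the ordered levels, since Sdha stood at 11.19 at day 0 and 12.29 at day 5. The middle lay between Sdha and Pgk1 at day 0 and between Pgk1 and Ywhaz at day 5. The median of the 12 day 5 differences was only 0.013. Under reference-level centring, members above their day 0 level numbered 8 in place of 22, and the member median was -0.38 beside -0.49 for all measured genes. Centring on the median change of the same reference genes instead lowered every day 5 difference by only 0.022. It gave a member median of 0.091 and 21 members above day 0.

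**Figure D1:**
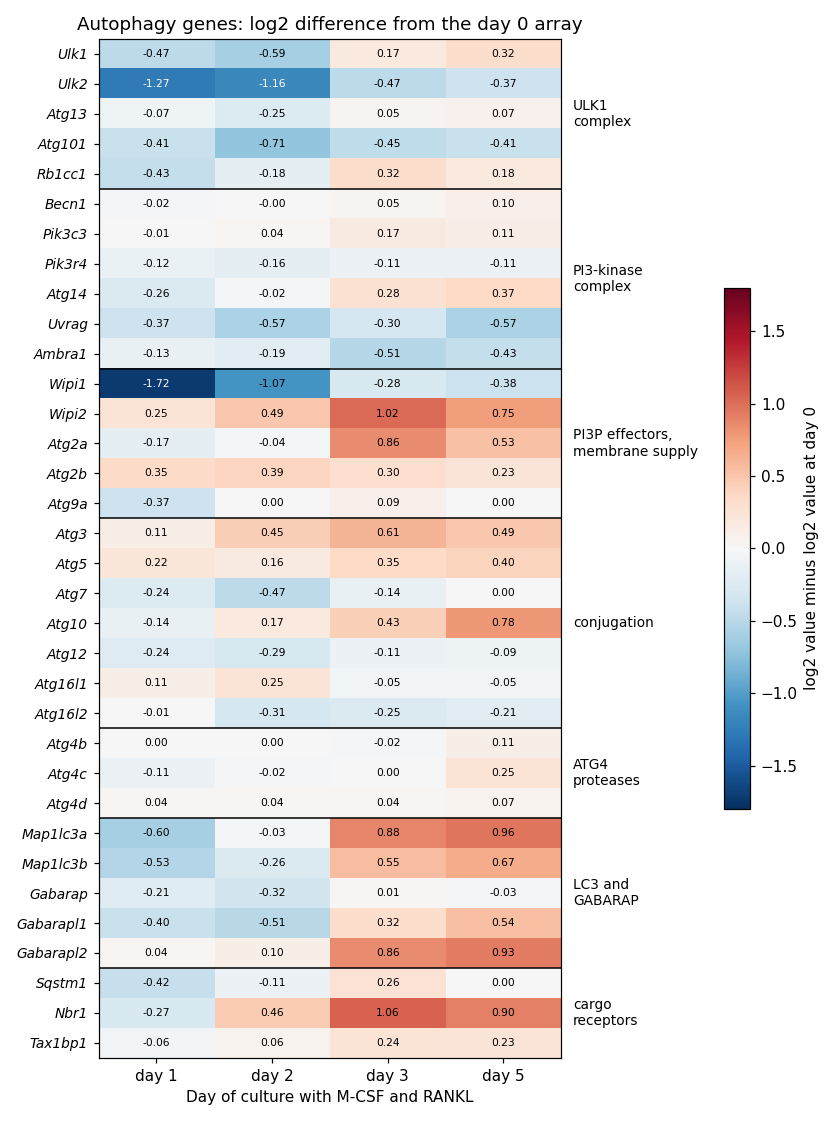
Difference of each of the 34 autophagy genes from its day 0 level, in log2 units (colour and printed number), on the arrays of days 1, 2, 3 and 5, grouped by role. The day 1 column is mostly blue, deepest at Wipi1 (-1.72) and Ulk2 (-1.27), and the day 3 and day 5 columns hold the highest values in Nbr1, Wipi2, Map1lc3a and Gabarapl2.

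By the sign of the differences, the path over the days was shared by most members. At day 1, 26 of 34 lay below their day 0 level, 7 above and 1 tied, where 43.2% of measured genes lay below. The median difference was -0.16, and 2 members were called lower (4.17% of measured genes) and 0 higher (2.91%). From day 1 to day 2 the members spread around 0, with a median of 0.055, 20 above, 12 below and 2 tied. Of them 0 were called higher (2.46% of measured genes) and 0 lower (0.556%).

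From day 2 to day 3, 29 of 34 members went up in value, 4 down and 1 was tied, with a median of 0.27, where 45.5% of measured genes went up and their median was 0.00. The step was broad but small: 0 members were called higher (2.08% of measured genes) and 0 lower (3.91%), while 11 exceeded 0.42 upward and 0 downward, beside 13.1% and 14.5% of measured genes. Between days 3 and 5 the members hardly moved, with a median of 0.028 and a range from -0.33 to 0.35, and 0 were called in either direction (0.158% of measured genes higher, 0.116% lower). Both a lower value at day 1 than at day 0 and a higher value at day 3 than at day 2 were found in 25 of 34 members, steps that share no array, and in 25.8% of measured genes. The count took each difference by its sign, however small, and all members were read on the same single arrays, so members are not replicates. Under reference-level centring this count was 18 members, beside 19.6% of measured genes, and under centring on the median change of the reference genes it was 27 members beside 39.2%. Under reference-level centring 19 members were above their day 2 value at day 3, with a median of 0.046 beside -0.22 for all measured genes.

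By extremes, 15 members had their lowest value at day 1 and 10 at day 2, together 73.5% of members beside 34.7% of measured genes. The highest value fell on day 3 for 10 members and on day 5 for 14, together 70.6% beside 34.8%. Under reference-level centring 20 members were still lowest at day 1 or 2, but 23 were highest at day 0 and 8 at day 3 or 5. Statements below on which day was highest or lowest refer to the deposited scale. The total range over the 5 arrays was not wide, with a median of 0.54 in members and 0.59 in measured genes. It reached 1 in 8 members, or 23.5%, against 25.8% of measured genes, and stayed under 0.5 in 16.

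**Figure D2:**
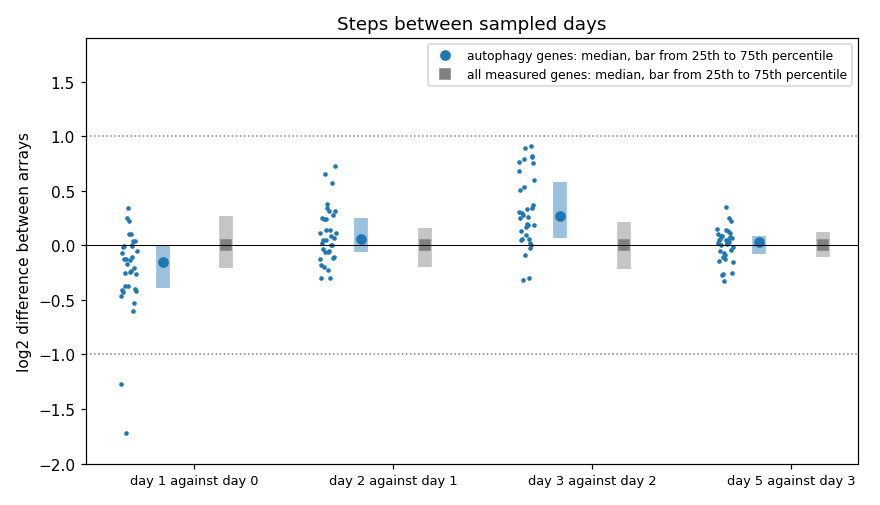
Log2 difference between consecutive arrays, with each autophagy gene as a small dot, its group's median as a circle with a bar from the 25th to the 75th percentile, and all 12049 measured genes as a square with the same bar; dotted lines mark 2-fold. The autophagy bar lies below 0 at day 1 against day 0 (median -0.16), above 0 at day 3 against day 2 (median 0.27) and about 0 at day 5 against day 3. Under reference-level centring these medians are -0.37, 0.046 and 0.0092.

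Initiation genes were lower on the early arrays. All 5 members of the ULK1 complex lay below day 0 at day 1 (median -0.43) and at day 2 (median -0.59), and all 5 went up from day 2 to day 3 (median 0.50). Ulk2, one of the paired kinases that start autophagy, stood at 9.29 at day 0, 8.02 at day 1, 8.13 at day 2, 8.82 at day 3 and 8.92 at day 5. Days 1 and 2 were low, by 2.41-fold and 2.23-fold against day 0, and day 5 was 0.37 below day 0. Ulk1, its better known relative, stood at 7.79, 7.32, 7.19, 7.96 and 8.11 on the same days, with the low values again at days 1 and 2 and the highest at day 5 (0.32 above day 0, but -0.17 under reference-level centring). The scaffold Rb1cc1, also known as FIP200, stood at 8.31, 7.89, 8.13, 8.64 and 8.49.

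Atg101 and Atg13, which bind each other in this complex, were both lowest at day 2. Atg101 stood at 10.12 at day 0, 9.72 at day 1, 9.42 at day 2, 9.67 at day 3 and 9.72 at day 5. It thus ended 0.41 below day 0, the largest day 5 difference in the complex but under the noise measure of 0.42. Atg13 kept within a range of 0.32 over the 5 arrays and ended 0.073 above day 0. Under reference-level centring both ended below day 0, Atg101 at -0.90 and Atg13 at -0.42.

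The class III PI3-kinase genes held 3 nearly flat members. The catalytic subunit Pik3c3 had a range of 0.18 over the 5 arrays, its regulatory subunit Pik3r4 0.16 and Becn1, the Beclin 1 scaffold, 0.12. All 3 stayed under the noise measure of 0.42. The subunits that define which of the complexes is formed differed from each other: Atg14, of the autophagosome-forming complex, stood at 7.43, 7.17, 7.41, 7.71 and 7.80 on days 0, 1, 2, 3 and 5, while Uvrag, of the endosomal complex, stood at 9.72, 9.34, 9.14, 9.41 and 9.14. Atg14 was thus highest and Uvrag close to its lowest at day 5, with differences from day 0 of 0.37 and -0.57. Under reference-level centring, which lowers every day 5 difference by 0.49, Atg14 turned to -0.12 and Uvrag was at -1.06. The direction of Atg14 thus depends on that scaling, while centring on the median change of the reference genes lowers day 5 differences by only 0.022. Ambra1, a Beclin 1 binding regulator, was also lower at day 5 (-0.43). The whole group had a day 5 median of -0.0038.

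The genes for PI3P effectors and membrane supply held the widest single difference of the list. Wipi1, a PI3P-binding protein of the forming autophagosome, stood at 8.06 at day 0, 6.34 at day 1, 6.99 at day 2, 7.79 at day 3 and 7.68 at day 5. The day 1 array was lowest, 3.29-fold below day 0, day 2 was still 2.10-fold below, and day 5 was 2.53-fold above day 1 but 0.38 below day 0. Its relative Wipi2, which recruits the conjugation enzyme complex, did not share the dip and stood at 8.21, 8.46, 8.70, 9.24 and 8.97. It was lowest at day 0 and 2.03-fold higher at day 3, where 7.29% of measured genes passed 2-fold upward and 7.5% downward. That call was lost, at 0.55, under reference-level centring. The lipid transfer proteins also differed from each other: Atg2a stood at 7.83, 7.66, 7.79, 8.69 and 8.36, with a step of 0.90 from day 2 to day 3, and Atg2b at 8.17, 8.51, 8.56, 8.47 and 8.40, with its highest value at day 2. Atg9a, the scramblase of the membrane vesicles that seed autophagosomes, had the same value, 8.23, at days 0, 2 and 5 and was lowest at day 1 (7.86). Exact ties between days 0 and 5 occurred in 964 of 12049 measured genes, and their cause was not tested.

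**Figure D3:**
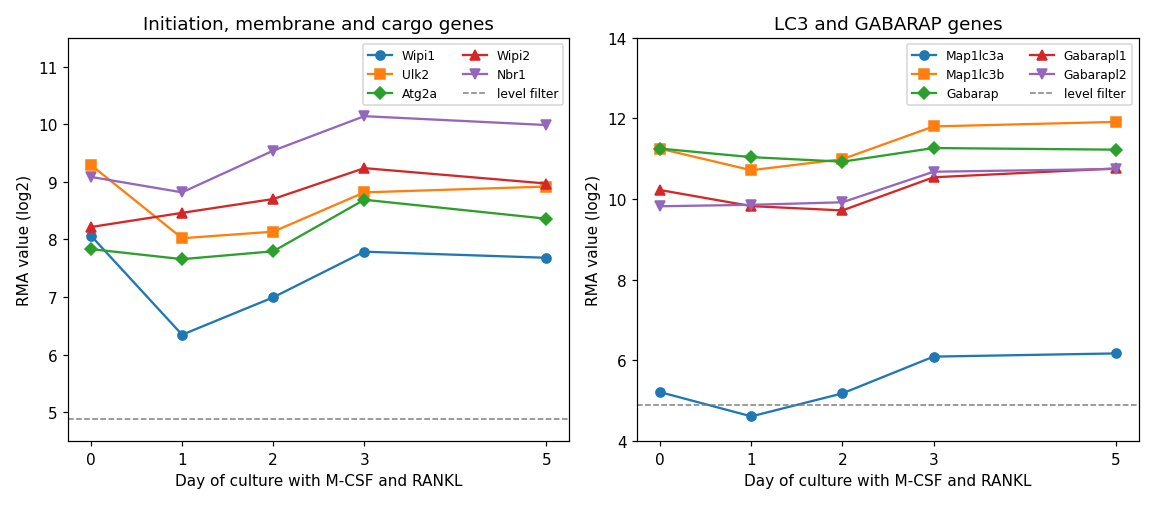
Deposited log2 levels of 10 autophagy genes on the 5 arrays, 1 point per array, with the level filter of 4.89 dashed; heights of different genes are not comparable. Wipi1 and Ulk2 are lowest at day 1, Wipi2 and Gabarapl2 are lowest at day 0 (Gabarapl2 at day 1 under reference-level centring), and Map1lc3a, Map1lc3b and Gabarapl1 are highest at day 5.

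The conjugation enzymes, which attach ATG12 to ATG5 and LC3 to lipid, were mixed, with a day 5 median of 0.0037. Atg10, the E2-like enzyme for ATG12, had the largest difference. It stood at 8.26, 8.12, 8.43, 8.69 and 9.04 on days 0, 1, 2, 3 and 5, which is 0.78 above day 0 at the end and 0.29 under reference-level centring. Atg3, the E2-like enzyme for LC3, was lowest at day 0 and highest at day 3, at 9.73, 9.84, 10.18, 10.35 and 10.22. Atg5 stood at 9.70 at day 0 and 10.09 at day 5. Under reference-level centring both ended marginally below day 0, Atg3 by a log2 difference of -0.00063 and Atg5 by -0.091. Atg7, the E1-like enzyme that serves both reactions, was at 10.24 on both of these days with a low value of 9.76 at day 2. Atg12, Atg16l1 and Atg16l2 kept within a range of 0.29 to 0.31 over the 5 arrays.

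Promoters of the members were searched for the E-box CACGTG, a motif read by the MITF and TFE factors of lysosomal gene control among others. Promoters were taken from RefSeq (build GRCm38.p6) for 28 of the 34 members, and the 250 bases before the gene start were searched. The motif reads the same on both strands. It was found in 3 of 28 members, Atg3, Atg5 and Atg7, or 10.7%, beside 9.85% of 9534 measured genes with a promoter and 6.02% of all 32851 promoters, so the share was near the background. The related TCATGTG, searched on both strands and not overlapping the E-box in its letters, was in 0 of 28 members and 2.37% of measured genes. The matching stretches are shown so that the letters found can be read. Atg10 and Atg16l2 of the same group held no match in this window, and Atg12 and Atg16l1 were not searched. Capitals mark the motif, and all 3 are on the plus strand, at chr16:45158715-45158783 for Atg3, chr10:44268305-44268338 for Atg5 and chr6:114670944-114670989 for Atg7.
Atg3: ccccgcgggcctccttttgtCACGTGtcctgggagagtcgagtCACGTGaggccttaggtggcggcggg
Atg5: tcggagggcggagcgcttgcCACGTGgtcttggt
Atg7: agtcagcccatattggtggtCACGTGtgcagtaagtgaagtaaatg
In Atg3 the motif occurs 2 times, beginning 94 and 71 bases before the gene start, in Atg5 it begins 14 bases and in Atg7 132 bases before it. Levels of the enzymes with the motif did not share 1 path, since on the deposited scale Atg3 and Atg5 were lowest at day 0 and Atg7 at day 2, and under reference-level centring at days 1, 3 and 2.

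The ATG4 proteases, which process LC3 and release it from membranes, were the flattest group. Atg4b had a range of 0.13 over the 5 arrays and Atg4d 0.070, and both Atg4b and Atg4d repeated exact values on neighbouring arrays. Atg4c, at 8.20, 8.09, 8.18, 8.20 and 8.45, had the largest day 5 difference of the 3 (0.25), which is under the noise measure.

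The LC3 and GABARAP genes, whose proteins coat the autophagosome, were highest as a group at day 5, with a median of 0.67 and 4 of 5 above day 0, also under reference-level centring, where the median was 0.18. All 5 went up between days 2 and 3, with a median of 0.81, the widest step of any role group, and all 5 did so under reference-level centring with a median of 0.59.

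Map1lc3b, the LC3 form most used as an autophagy marker, stood at 11.25 at day 0, 10.72 at day 1, 10.99 at day 2, 11.80 at day 3 and 11.91 at day 5. Day 1 was lowest and day 5 highest, 2.29-fold above day 1 and 1.59-fold above day 0. Map1lc3a followed the same order at lower levels, with 5.21, 4.61, 5.18, 6.09 and 6.17. Its day 1 value lay below the filter level of 4.89, where such arrays compress differences, and day 5 was 2.95-fold above day 1 and 1.95-fold above day 0.

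Of the GABARAP genes, Gabarapl2 was level until day 2, at 9.82, 9.86 and 9.92, and stood at 10.68 and 10.75 at days 3 and 5, a difference of 0.93 from day 0. Gabarapl1 was lowest at day 2, with 10.22, 9.83, 9.72, 10.54 and 10.76 over the days and a day 5 difference of 0.54. For Gabarap itself the 2 rows disagreed in sign: the brighter one stood at 11.25, 11.04, 10.93, 11.27 and 11.23 (day 5 difference -0.026), and the dimmer one at 8.21, 7.94, 7.93, 8.42 and 8.61 (0.40). Both rows were lower at days 1 and 2 than at day 0.

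Cargo receptors bridge ubiquitinated or other cargo to LC3, and the 3 with values all lay below day 0 at day 1 (median -0.27) and above their day 2 level at day 3 (median 0.36). Under reference-level centring 2 of the 3 were above day 2 at day 3. Nbr1, a receptor for ubiquitinated proteins, stood at 9.08, 8.82, 9.54, 10.14 and 9.99 on days 0, 1, 2, 3 and 5. It was 2.08-fold above day 0 at day 3, a call that was lost at 0.58 under reference-level centring, and 2.25-fold above day 1 at day 5. Sqstm1, the p62 receptor, stood at 12.02, 11.60, 11.91, 12.28 and 12.02, and so ended at its starting level, or at -0.49 from it under reference-level centring, after a low value at day 1 and a high one at day 3. Tax1bp1, which also binds ubiquitinated cargo, kept within a range of 0.30.

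Because the early arrays were low, the count of calls depended on the starting array. With day 1 as the start, 4 of 34 members were called higher by day 5 and 0 lower, beside 6.30% and 6.73% of measured genes. These were Map1lc3a (1.56), Wipi1 (1.34), Map1lc3b (1.20) and Nbr1 (1.17), a set named after its values were seen. The member median was 0.32 and that of all measured genes 0.00. Under reference-level centring 2 members were called and the member median was 0.039 beside -0.28 for all measured genes. At day 2 against day 0, Wipi1 and Ulk2 were the 2 members called lower (5.25% of measured genes) and 0 were higher (5.18%). At day 3 against day 0, Nbr1 and Wipi2 were the 2 members called higher (7.29% of measured genes) and 0 were lower (7.5%). Both calls were lost under reference-level centring, while 2 members were called higher under centring on the median change of the reference genes.

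Further genes of the pathway were read from lists written with earlier results of these data in view. Their day 5 counts stand against the same 6.78% of measured genes called higher and 6.56% called lower, so that 0 or 1 call in a list of this size says little about the list. Of 12 other genes of autophagosome formation 0 were called at day 5, with a median of 0.18. The largest difference belonged to Wdfy3, a large adaptor for aggregate clearance also called ALFY, at 10.21 at day 0 and 9.21, 9.32, 9.43 and 9.40 at days 1, 2, 3 and 5. The low level was thus reached by day 1, and under reference-level centring the day 5 difference was -1.30 and passed 2-fold. Of 16 genes that join autophagosomes to lysosomes, 1 was called higher and 0 lower (median 0.13). It was Vps39, a subunit of the HOPS tethering complex, at 9.25, 8.97, 9.97, 10.72 and 10.65, 2.63-fold above day 0 at day 5. Its difference was 0.90, and its call lost, under reference-level centring. Other HOPS subunits were nearer 0 at day 5, with differences from -0.070 for Vps16 to 0.35 for Vps11 and Vps18. Vps33a stood at 10.04 on days 0 and 5, and Vps41 had a difference of 0.19.

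Selective receptors and mitophagy genes outside the member list stood above day 0 at day 5 in 14 of 14 cases (median 0.53), beside 42.8% of measured genes. Of the 14, 2 were called higher and 0 lower. Under reference-level centring only 7 of 14 stood above day 0 (median 0.045). Ncoa4, the receptor for ferritin, was at 7.82, 8.34, 9.12, 9.85 and 9.60, already above day 0 at day 1. Pink1, the kinase that marks damaged mitochondria, stood at 6.65, 6.03, 6.31, 7.74 and 7.90, lowest at day 1 and 2.38-fold above day 0 at day 5. Its call was lost at 0.76 under reference-level centring. Retreg1, the endoplasmic reticulum receptor FAM134B, named here after its values were seen, stood at 8.70, 7.55, 8.05, 9.07 and 9.50.

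Few regulators differed. Of 7 transcription factors of autophagy and lysosome genes 0 were called at day 5 (median 0.025), the largest difference being that of Tfe3, which stood at 9.23 at day 0 and 8.83, 8.82, 8.82 and 8.79 afterwards. Tfeb kept between 5.58 and 5.67, and Mitf was at 10.55 at day 2 beside 9.66 to 9.83 on the other arrays. Of 22 genes of mTORC1, Ragulator and AMPK signalling, which report nutrient state to the ULK1 complex, 1 was called higher and 0 lower (median 0.0092). This was Rragd, a Rag GTPase of lysosomal mTORC1 signalling, at 4.35 and 4.17 at days 0 and 1, below the filter level, then 6.62, 8.12 and 8.48. Since its early values lie where such arrays compress differences, no fold is given. At day 3 against day 0, 2 of the 22 were called higher and 0 lower, beside 7.29% and 7.5% of measured genes. These were Rragd and Deptor, the latter at 7.29 at day 0, 8.35 at day 3 and 8.09 at day 5. The Deptor call was lost at 0.59 under reference-level centring.

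The NADPH oxidase genes that serve LC3-associated phagocytosis split, with 1 of 5 called higher, 1 lower and 3 neither. Rac2, the GTPase of the oxidase, was at 12.19, 11.87, 12.81, 13.35 and 13.31, and its call at day 5 was lost at 0.63 under reference-level centring. Ncf1, the p47phox subunit, was at 9.81, 8.51, 8.12, 8.39 and 8.47, low on all arrays after day 0.

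**Figure D4:**
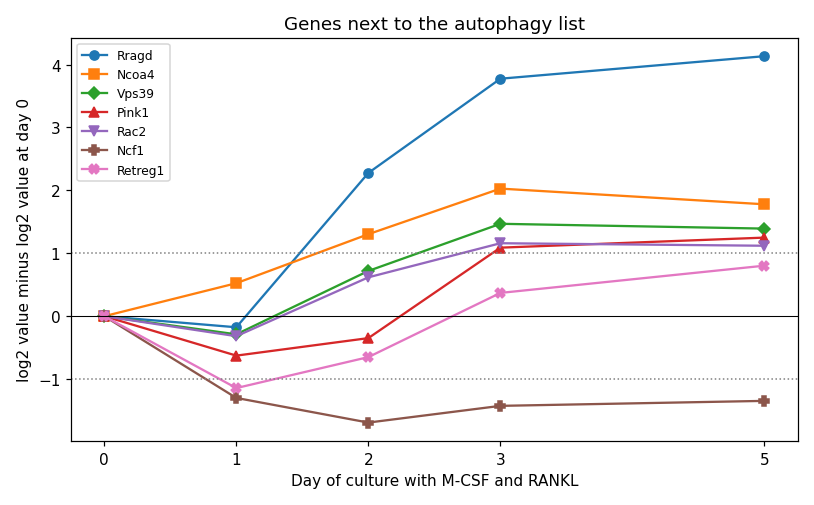
Log2 difference from day 0 for 7 genes of pathways next to the autophagy list on the 5 arrays, 1 point per array, with dotted lines at 2-fold. Rragd is highest, at 4.13 at day 5 from a day 0 value below the filter level, Ncoa4, Vps39, Pink1 and Rac2 end between 1.12 and 1.78, Retreg1 ends at 0.80 after -1.14 at day 1, and Ncf1 stays below -1 from day 1 on. Under reference-level centring each day 5 value is lower by 0.49, and of these 7 none changes sign.

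Markers of other cell types also differed between the arrays. Of 7 measured neutrophil markers 4 were called lower at day 5 against day 0, beside 6.56% of measured genes. The summed linear level of all 8 neutrophil markers was 1576 at day 0, 1772 at day 1, 803 at day 2, 1010 at day 3 and 719 at day 5. Of 8 macrophage markers 8 lay below day 0 at day 1 (median -0.73), beside 43.2% of measured genes. From day 2 to day 3, 8 went up (median 0.38, and 6 of 8 under reference-level centring), beside 45.5% of measured genes. This is the order in which most autophagy genes moved. The summed linear level of the macrophage markers was 32731, 20104, 19394, 25299 and 26416 over the 5 days. Stromal and osteoblast markers summed to 199, 514, 500.2, 438 and 312, differences carried by the proteoglycan Dcn. Col1a1 stayed above the filter level, between 5.06 and 5.38, and Pdgfrb lay above it except at day 2 (4.55). Bglap passed the filter level only at day 3 (4.91), and Col1a2, Pdgfra, Sp7 and Cxcl12 lay below it on all arrays. The 7 B, T and NK cell markers summed to between 127 and 142. The part of these cells in the autophagy values was not tested.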

How the data were processed

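RNA of 5 samples, 1 per day, was measured on 1 array each, and arrays were assigned to days from the labels. The deposited log2 values were made by the authors with RMA in the oligo package in R 3.4.0, per the submitters' processing notes. RMA corrects for background, gives every array the same distribution and combines the probes of each row. A shift of all genes between days is therefore removed, and differences near background are compressed. The genome build behind the rows is not given in the sources used here.

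Of 41345 rows 23521 name 1 gene, 1814 several and 16010 are not listed, and the latter were left out. For 34 members the Entrez identifier gave the same symbol in RefSeq. Differences, counts and medians were computed with Python 3.11.15, numpy 2.4.6 and pandas 2.3.3, without p-values, since each day had 1 array. Member counts stand beside all 12049 measured genes, those whose mean reached the median row (4.89). The script that counts calls was tested on simulated data, which says nothing about any single call. All members are described by role. Each array is given for those called at any day or leading a role group, and for the called or leading genes of each further list. Further members given array by array, and Vps11, Vps16, Vps18, Vps33a, Vps41, Tfeb, Mitf, Deptor and Retreg1, were chosen after their values were seen. Members and lists were chosen with earlier results of these data known. Alternatives covered rows, scaling, filters, days, call size and the list summary.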

Additional observations from a re-analysis of the deposited data

How the results depend on the processing

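Each day had 1 array, so no value has a replicate error, and no sample was left out of a group. No paired analysis was possible because each group held 1 sample. Medians were read as moved when they shifted by more than the noise of 1 row divided by the root of the member number, and counts when they differed by more than 1.5 times. Both limits are working rules and not errors, since the members were read on the same single arrays and are not replicates. The alternatives for comparisons other than day 5 against day 0, and the centring on reference gene changes, were chosen after seeing the data.

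The mean of a gene's rows, centring on all rows or on reference gene changes, no level filter and a filter at the 75th percentile moved no count or median of members that far. The number of members called higher at day 5 against day 1 was 3 with the filter at the 75th percentile, and the number below day 0 at day 1 and above day 2 at day 3 ran from 23 to 27 over these alternatives. The share of measured genes with that path did move under centring on reference gene changes, to 39.2%. Centring on the reference genes' median level gave 1 member lower at day 5 against day 0 (16.2% of measured genes), 0 higher at day 3 against day 0 (3.96%) and 2 higher at day 5 against day 1 (4.12%). The medians under it were -0.38 at day 5, -0.37 at day 1, -0.28 at day 2 and -0.34 at day 3 against day 0, 0.046 at day 3 against day 2 and 0.039 at day 5 against day 1, with all measured genes at -0.49, -0.21, -0.25, -0.47, -0.22 and -0.28. The shift is set by this centring's own construction, through which genes stand at the middle of the ordered reference levels. With day 1 in place of day 0, 4 members were higher at day 5 and the median was 0.32, and with day 3 in place of day 5, 2 were higher. The cause was not tested.

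Counting at 1.5-fold gave 6 members higher at day 5 (13.3% of measured genes) and 6 at day 3 against day 0 (13.8%), 4 lower at day 2 against day 0 (11.3%), 2 higher at day 2 against day 1 (6.14%), 9 higher at day 3 against day 2 (7.71%) and 12 higher at day 5 against day 1 (13.4%). Means in place of medians were 0.19 at day 5, -0.23 at day 1 and -0.14 at day 2 against day 0, and 0.42 at day 5 against day 1. Of 46 named genes none changed sign when called. Their day 5 difference shifted by over 0.42 in 14 with day 1 as the start and in 46 with the reference genes' median level.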
